A study of Mus musculus with 6 samples.

Results

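The transcripts described here are 10 genes of the circadian clock and its PAR bZIP output branch in the livers of fasted mice given the hormone FGF19, namely Arntl, Npas2, Nfil3, Nr1d1, Nr1d2, Dbp, Tef, Hlf, Per3 and Cry2. They were selected by gene symbol from the 23284 genes of the count files, and all 10 passed the filter on low counts, as 12559 genes in all did. The list was chosen from known results of the same comparison of FGF19 with vehicle, that is from the expression differences in these 6 libraries, so the differences of the 10 genes are given below as a description, with no p-values, and counts of those past a threshold stand beside the share over all genes without being read as evidence. Liver RNA came from C57BL/6 mice aged 8 weeks, which the study's methods describe as male and housed under a light/dark cycle. All mice were fasted overnight and stayed fasted while they were treated for 6 h with vehicle (3 mice) or with 1 mg/kg FGF19 (3 mice), and 1 library was made per mouse. FGF19 is the human gut hormone whose mouse counterpart is FGF15, so the treated group received a human protein. The hour of day at which treatment began or livers were taken is not given in the sources used here, and there was 1 collection time. Whether the pattern fits a shift of clock phase was therefore approached through the direction of each gene, the ratios between genes known to peak at different hours, and the spread between mice of 1 group.

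The liver clock is a loop of transcription factors. BMAL1 (the product of Arntl) pairs with CLOCK or NPAS2 and activates genes with E-boxes, among them the Per and Cry genes, whose proteins inhibit the pair, the REV-ERB genes Nr1d1 and Nr1d2, and the PAR bZIP genes Dbp, Tef and Hlf. The REV-ERB proteins repress Arntl, Npas2 and Nfil3 through the element they share with the ROR activators, and DBP, TEF and HLF activate D-box genes that NFIL3 represses. In mouse liver, transcripts of Arntl, Npas2 and Nfil3 are known to peak late in the night to early morning, and those of the other 7 genes between the day and dusk. These sets are called late-night and day-to-dusk genes below, and a later or earlier clock and a stronger or weaker clock can both move them in opposite directions at a single hour.

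The promoters of 4 of the genes carry, within 250 bases before and 50 bases after an annotated start, one of the elements named above, and are shown to give the elements in their sequence. RefSeq promoter windows of GRCm38.p6 were found for 10 of 10 genes, in 12 windows since Arntl and Tef have 2 each. The motifs, searched on both strands, were the E-box CACGTG, the core of the REV-ERB and ROR element as TAGGTCA or TGGGTCA, and the D-box as TTATGTAA or TTACGTAA, and they stand in capitals. The sequences read 5′ to 3′ on the strand of the gene. The Arntl window (chr7:113207261-113207560, plus strand) has the REV-ERB and ROR core at positions 31 to 37, where 1 is the first transcribed base, and the other Arntl window (chr7:113207215-113207514) does not hold it. The Nfil3 window (chr13:52980990-52981289, minus strand) holds the same core on the opposite strand at positions -12 to -6 from the start. Both Tef windows hold an E-box, and the one shown (chr15:81811164-81811463, plus strand) has it at -138 to -133. The Per3 window (chr4:151044616-151044915, minus strand) has 2 D-boxes, the first at -205 to -198 and the second at -158 to -151.
Arntl: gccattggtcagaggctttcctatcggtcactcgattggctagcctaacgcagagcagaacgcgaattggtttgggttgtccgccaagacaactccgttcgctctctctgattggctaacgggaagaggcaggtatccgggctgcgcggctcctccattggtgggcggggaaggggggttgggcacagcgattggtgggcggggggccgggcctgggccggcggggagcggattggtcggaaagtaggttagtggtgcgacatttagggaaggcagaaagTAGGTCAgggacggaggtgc
Nfil3: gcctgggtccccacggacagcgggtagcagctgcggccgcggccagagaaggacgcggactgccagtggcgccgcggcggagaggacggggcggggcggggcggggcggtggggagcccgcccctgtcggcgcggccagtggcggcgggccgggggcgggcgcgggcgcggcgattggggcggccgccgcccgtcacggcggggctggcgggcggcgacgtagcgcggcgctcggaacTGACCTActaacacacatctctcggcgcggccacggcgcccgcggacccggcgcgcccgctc
Tef: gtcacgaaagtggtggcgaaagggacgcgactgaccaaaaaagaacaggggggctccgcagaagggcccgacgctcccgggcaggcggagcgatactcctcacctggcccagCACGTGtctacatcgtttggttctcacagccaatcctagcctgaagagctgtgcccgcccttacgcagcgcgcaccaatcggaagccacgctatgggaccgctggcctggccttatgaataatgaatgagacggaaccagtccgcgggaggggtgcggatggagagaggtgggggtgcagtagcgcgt
Per3: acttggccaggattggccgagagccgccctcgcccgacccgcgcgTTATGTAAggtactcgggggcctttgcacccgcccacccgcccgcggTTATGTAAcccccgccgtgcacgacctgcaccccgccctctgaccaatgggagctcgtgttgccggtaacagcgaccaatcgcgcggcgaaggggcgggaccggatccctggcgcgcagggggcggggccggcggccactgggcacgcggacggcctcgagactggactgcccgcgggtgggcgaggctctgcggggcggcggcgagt
Among 32851 RefSeq windows of the same length, 7.15% held the E-box, 6.45% the REV-ERB and ROR core and 1.06% the D-box. Counted per gene over any of its windows, 1, 2 and 1 of the 10 genes held them, against 8.09%, 7.35% and 1.23% of 27025 genes, and nothing is read from so few. The windows of Npas2, Nr1d1, Nr1d2, Dbp, Hlf and Cry2 did not contain these letters, which says nothing of elements elsewhere in those genes.

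The libraries held 18994654 to 22920056 counts assigned to genes, and 3 counts corresponded to 0.131 to 0.158 CPM. Levels are given as CPM, counts brought to a common library size with TMM factors, and differences as the log2 fold change of FGF19 over vehicle from edgeR with its standard error. Among the clock genes, Vehicle mice 1 and 2 deviated from their group in opposite directions and FGF19 mouse 3 from the other FGF19 mice, so for each of the 10 genes the range of the log2 fold change with 1 mouse left out is given below. The RNA is of whole liver, so fewer cells of a type and less RNA per cell cannot be told apart. Hepatocyte markers summed to 89100 to 94200 CPM in vehicle mice and 81700 to 93100 CPM in FGF19 mice.

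Among the 10 genes, the signs of the fitted differences divided by the hour at which the genes are known to peak, although the 95% intervals of Arntl and Nfil3 included 0. The 8 further core clock genes given below were not sorted by peak hour. The 3 late-night genes had positive log2 fold changes, from 0.09 for Nfil3 to 1.17 for Npas2, and the 7 day-to-dusk genes had negative ones, from -0.30 for Hlf to -1.59 for Dbp. The sign of Nfil3 depended on the mice, since its log2 fold change was -0.10 without Vehicle mouse 1 and -0.02 without FGF19 mouse 1. With the threshold at an adjusted p of 0.05 (edgeR, quasi-likelihood), 4 of the 10 genes were called lower (Dbp, Tef, Per3 and Cry2), where 2.84% of all genes tested were lower. At the same threshold 0 of the 10 were higher by edgeR, where 4.56% of all genes were. DESeq2 called 5 of the 10 lower and 1 higher, Npas2, where it called 4.13% and 5.11% of all genes. At an unadjusted p under 0.05 in edgeR, 7 were lower and 1 higher, where 11.3% and 11.6% of all genes were. With 1 mouse left out the number lower was 1 to 4, with 1 without Vehicle mouse 3 or FGF19 mouse 2, 2 without FGF19 mouse 1, and 1 gene (Npas2) higher without FGF19 mouse 3, where the share of all genes lower was 0.719% (without FGF19 mouse 2) to 7.3% (without FGF19 mouse 3) and 8% were higher in the latter fit. The groups did not overlap in 6 of the 10 genes, all lower, where 13.8% of all genes tested were lower and 14.5% higher without overlap. Because the genes were picked from this contrast, nothing is read from these counts. The median log2 fold change was -0.39 over the 10 genes and 0 over all genes tested.

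**Figure D1:**
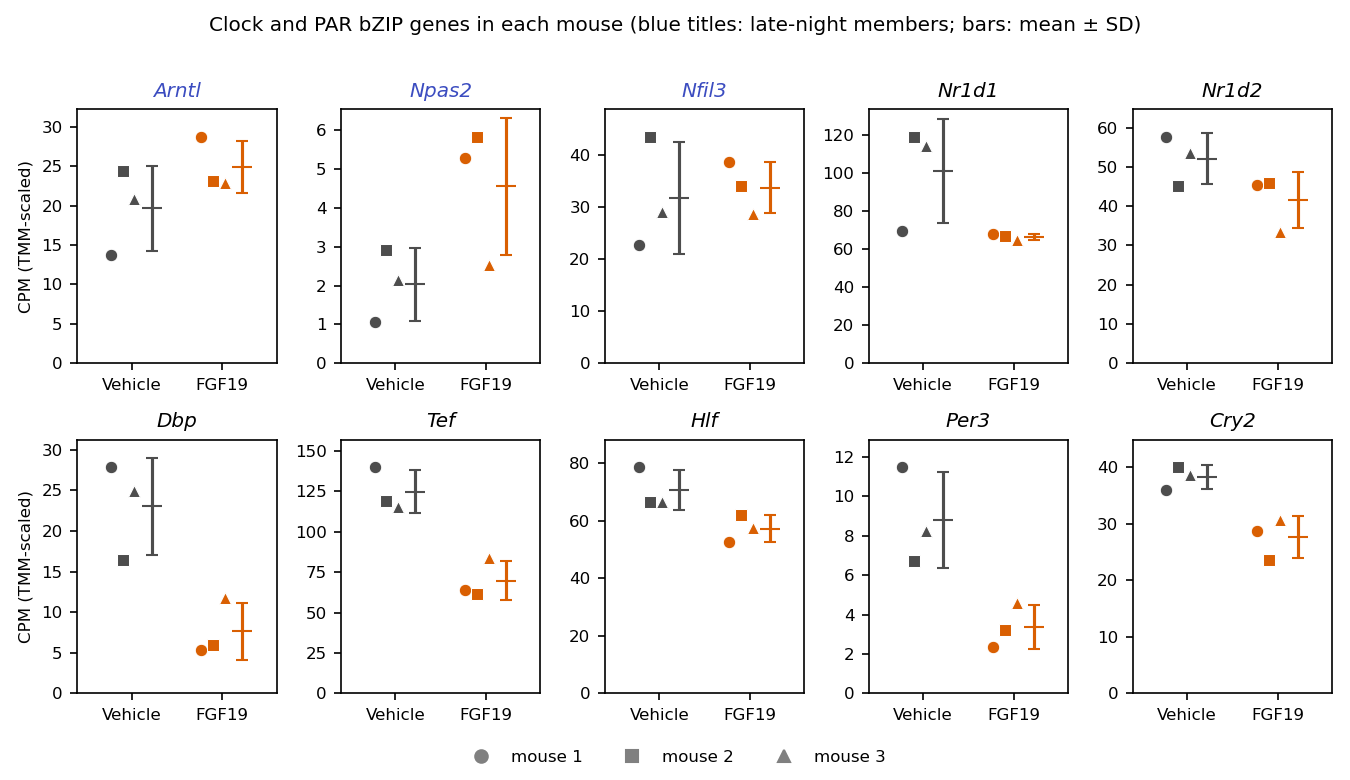
Levels of the 10 genes in each mouse, in TMM-scaled CPM on a linear axis from 0, with vehicle in grey, FGF19 in orange, a symbol per mouse, and the mean with SD beside the points. Dbp, Tef, Hlf, Per3 and Cry2 are separated between groups, Nr1d1 lies at 67.7, 67 and 64.7 CPM in the FGF19 mice against 69.5 to 119 CPM in the vehicle mice, and Arntl, Npas2, Nfil3 and Nr1d2 overlap.

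Npas2, which encodes a partner of BMAL1 that can stand in for CLOCK, had the most positive log2 fold change of the 10 genes. Its level (chr1:39251117-39420085, plus strand, mm9) was 1.05, 2.91 and 2.13 CPM in vehicle mice 1 to 3 and 5.3, 5.84 and 2.54 CPM in FGF19 mice 1 to 3, from 22 to 127 counts per library. FGF19 mice 1 and 2 were above all vehicle mice, and FGF19 mouse 3 lay between vehicle mice 3 and 2. The means were 2.03 ± 0.937 and 4.56 ± 1.77 CPM (SD, n = 3 each), a log2 fold change of 1.17 (SE 0.385, 95% interval 0.31 to 2.04). With 1 mouse left out it ranged from 0.85 (without Vehicle mouse 1) to 1.52 (without Vehicle mouse 2).

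Arntl, which encodes BMAL1, moved little in comparison. Its level (chr7:120350979-120457640, plus strand, mm9) was 13.8, 24.4 and 20.9 CPM in vehicle mice and 28.8, 23.2 and 22.9 CPM in FGF19 mice. The groups overlapped, since Vehicle mouse 2 exceeded FGF19 mice 2 and 3, and Vehicle mouse 1 was the lowest of all. The log2 fold change was 0.34 (SE 0.19, 95% interval -0.08 to 0.77), and it was 0.14 without Vehicle mouse 1 and 0.52 without Vehicle mouse 2.

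Nr1d1 and Nr1d2, the REV-ERB alpha and beta genes that repress Arntl, both had lower means after FGF19. Nr1d1 (chr11:98629249-98636556, minus strand, mm9) was at 69.5, 119 and 114 CPM in vehicle mice and at 67.7, 67 and 64.7 CPM in FGF19 mice. The FGF19 mice lay within a few CPM of each other, and Vehicle mouse 1 was nearer to them than to the other vehicle mice. The means were 101 ± 27.3 and 66.4 ± 1.56 CPM (SD, n = 3 each), and the log2 fold change was -0.60 (SE 0.175, 95% interval -0.99 to -0.21), and it ranged from -0.81 (without Vehicle mouse 1) to -0.47 (without Vehicle mouse 2). Nr1d2 (chr14:19036570-19071620, minus strand, mm9) was at 57.7, 45 and 53.6 CPM in vehicle mice and at 45.4, 46 and 33.4 CPM in FGF19 mice. Its groups overlapped, with the lowest value in FGF19 mouse 3, and the log2 fold change was -0.33 (SE 0.141), ranging from -0.42 without Vehicle mouse 2 to -0.19 without FGF19 mouse 3.

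Per3 and Cry2 encode members of the repressor families that act on BMAL1 and its partners. Per3 (chr4:150377764-150418731, minus strand, mm9), whose promoter with its pair of D-boxes is printed above, was at 11.5, 6.73 and 8.24 CPM in vehicle mice and at 2.37, 3.22 and 4.57 CPM in FGF19 mice. Every vehicle mouse was above every FGF19 mouse, at means of 8.82 ± 2.43 and 3.39 ± 1.11 CPM (SD, n = 3 each). This was 2.6-fold lower after FGF19, a log2 fold change of -1.38 (SE 0.264, 95% interval -1.97 to -0.79), and it ranged from -1.65 (without FGF19 mouse 3) to -1.14 (without Vehicle mouse 1). Cry2 (chr2:92243804-92274226, minus strand, mm9) was at 35.9, 40 and 38.6 CPM in vehicle mice and at 28.7, 23.5 and 30.7 CPM in FGF19 mice. Its groups also did not overlap, but the log2 fold change was smaller, at -0.46 (SE 0.114, 95% interval -0.72 to -0.21). With 1 mouse left out the Cry2 value ranged from -0.54 to -0.35. Of its 4367 exon bases, 149 are shared with D930015M05Rik, and reads on shared bases were not counted.

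**Figure D2:**
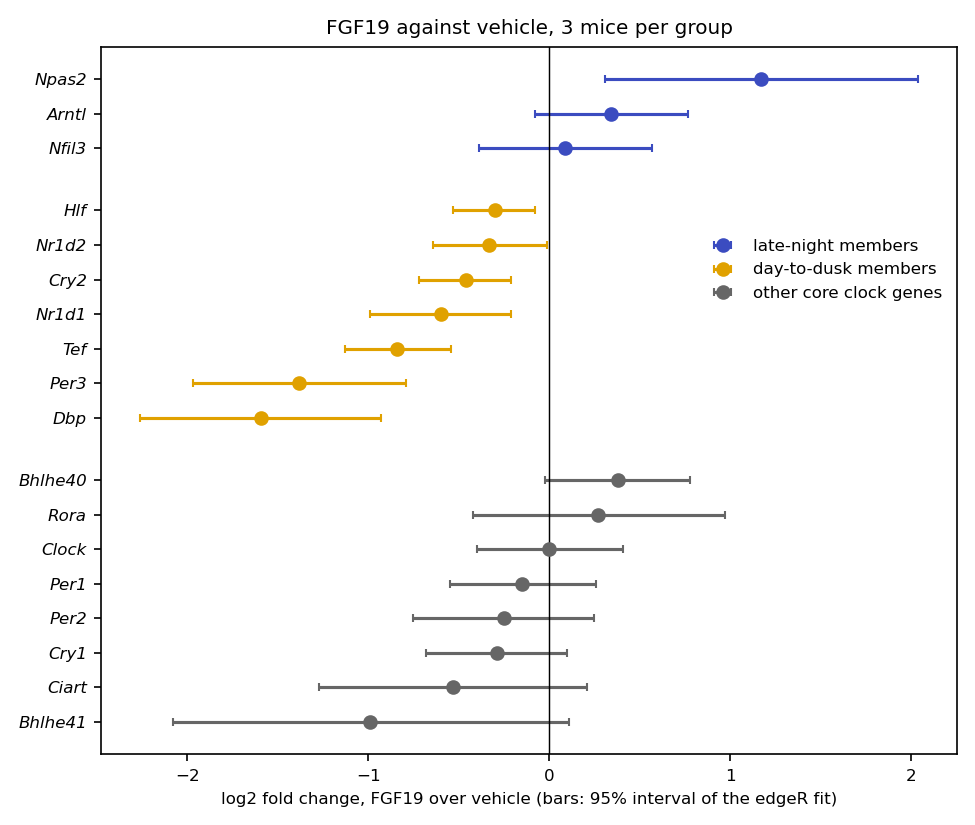
Log2 fold change of FGF19 over vehicle with its 95% interval from edgeR for the 10 genes and for 8 further core clock genes, with the late-night genes in blue, the day-to-dusk genes in yellow and the further genes in grey. Among the 10 genes, those of the late night lie at 0.09 to 1.17 and those of the day to dusk at -0.30 to -1.59, and the intervals of Arntl, Nfil3 and all 8 further genes include 0.

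Of the 3 PAR bZIP activators, Dbp and Tef were among the genes past the threshold and Hlf was not, and their differences were not tested against each other. Dbp (chr7:52960617-52965573, plus strand, mm9) was at 27.9, 16.4 and 24.9 CPM in vehicle mice and at 5.3, 5.93 and 11.7 CPM in FGF19 mice. The groups did not overlap, although FGF19 mouse 3 kept the highest Dbp level of its group. The means were 23.1 ± 5.99 and 7.64 ± 3.52 CPM (SD, n = 3 each), 3.02-fold lower, with a log2 fold change of -1.59 (SE 0.295, 95% interval -2.26 to -0.93), ranging from -2.03 (without FGF19 mouse 3) to -1.39 (without FGF19 mouse 1). Of 1678 exon bases of Dbp, 539 are shared with Sphk2, and reads on them were not counted.

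Tef, with its E-box in both promoter windows, is the most abundant of the activators per length. It (chr15:81633103-81657293, plus strand, mm9) was at 140, 119 and 115 CPM in vehicle mice and at 63.8, 61.7 and 83.7 CPM in FGF19 mice, without overlap. The means were 125 ± 13.5 and 69.7 ± 12.1 CPM (SD, n = 3 each), 1.79-fold lower, with a log2 fold change of -0.84 (SE 0.132, 95% interval -1.13 to -0.54). With 1 mouse left out it ranged from -0.98 to -0.75. Hlf (chr11:90197849-90252231, minus strand, mm9) was at 78.8, 66.6 and 66.7 CPM in vehicle mice and at 52.6, 61.9 and 57.4 CPM in FGF19 mice. These groups were also apart, by a smaller margin, and the log2 fold change was -0.30 (SE 0.102, 95% interval -0.53 to -0.08), ranging from -0.36 to -0.22.

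Nfil3, the D-box repressor whose promoter carries the REV-ERB and ROR core shown above, overlapped fully between groups. It (chr13:53062578-53076408, minus strand, mm9) was at 22.7, 43.6 and 29 CPM in vehicle mice and at 38.7, 34 and 28.7 CPM in FGF19 mice. The FGF19 values all lay within the vehicle range, and the log2 fold change was 0.09 (SE 0.213, 95% interval -0.39 to 0.57), ranging from -0.10 without Vehicle mouse 1 to 0.39 without Vehicle mouse 2.

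The balance of D-box activator and repressor transcripts was then compared per transcript length, as RPKM, that is CPM divided by exon length in kilobases. Dbp, Tef and Hlf together summed to 62, 48.2 and 52.4 RPKM in vehicle mice and to 26.8, 28.3 and 35.9 RPKM in FGF19 mice, at means of 54.2 ± 7.07 and 30.3 ± 4.88 (SD, n = 3 each). The composition of this sum changed with its size. Dbp made up 26.9%, 20.3% and 28.3% of it in vehicle mice and 11.8%, 12.5% and 19.4% in FGF19 mice. Hlf made up 22.5% to 24.4% in vehicle mice and 28.2% to 38.6% in FGF19 mice. The share of Tef had means of 51.7 ± 3.18% and 51.6 ± 2.39% (SD, n = 3 each). Nfil3 level over this sum was 0.184, 0.455 and 0.278 in vehicle mice and 0.725, 0.603 and 0.401 in FGF19 mice, which overlapped between Vehicle mouse 2 and FGF19 mouse 3. Since reads on the bases of Dbp shared with Sphk2 were not counted, its level per full length is too low. Over its 1139 unshared bases, a length chosen after seeing the data, Dbp made up 27.2% to 36.8% of the sum in vehicle mice and 16.5% to 26.2% in FGF19 mice.

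**Figure D3:**
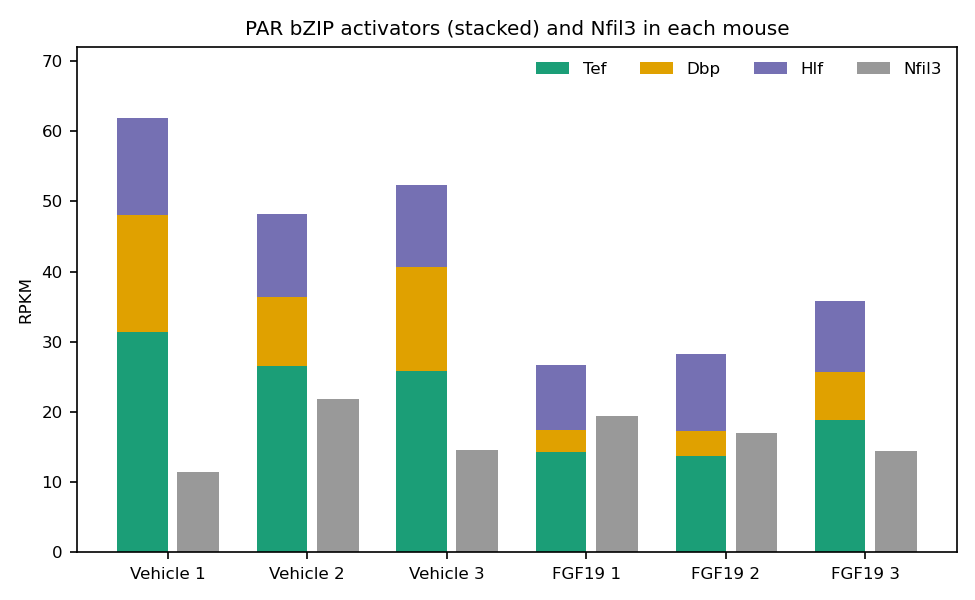
Levels of the PAR bZIP activators Dbp, Tef and Hlf, stacked, and of Nfil3 in each mouse, in RPKM from 0. The stacks reach 48.2 to 62 RPKM in vehicle mice and 26.8 to 35.9 RPKM in FGF19 mice, and Nfil3 stands at 11.4 to 21.9 and 14.4 to 19.4 RPKM.

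The order of levels between the genes was also given per length. In vehicle mice it ran from Nr1d1 (mean 38.4 RPKM) over Tef (28), Nfil3 (15.9), Dbp (13.7), Hlf (12.5), Nr1d2 (11.2), Cry2 (8.74), Arntl (6.78) and Per3 (1.48) to Npas2 (0.486). The neighbours that did not overlap over the 3 vehicle mice were Tef above Nfil3, Nr1d2 above Cry2, Arntl above Per3 and Per3 above Npas2, and the other neighbours overlapped. In FGF19 mice the order was Nr1d1 (25.3 RPKM), Nfil3 (16.9), Tef (15.6), Hlf (10.1), Nr1d2 (8.96), Arntl (8.59), Cry2 (6.33), Dbp (4.55), Npas2 (1.09) and Per3 (0.569). The neighbours without overlap there were Nr1d1 above Nfil3, Tef above Hlf, Arntl above Cry2 and Dbp above Npas2. The place of Dbp depends on the length used. Over its unshared bases its mean was 20.3 RPKM in vehicle mice, above Nfil3, and 6.71 RPKM in FGF19 mice, next to Cry2 (6.55 RPKM on the same basis) and below Arntl.

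Ratios between genes of opposite peak hours within a mouse do not depend on the library size, and were examined because a clock read at another hour shows them at another value. The log2 ratio of Arntl to Nr1d1, per length, was -2.48, -2.43 and -2.59 in vehicle mice and -1.38, -1.68 and -1.64 in FGF19 mice. The SD of this ratio was 0.0819 in vehicle mice although their Arntl and Nr1d1 levels were spread, since Vehicle mouse 1 was low in both genes. The log2 ratio of Arntl to Dbp spread more widely, at -1.81, -0.22 and -1.04 in vehicle mice and 1.65, 1.17 and 0.18 in FGF19 mice. These groups were apart as well, with Vehicle mouse 2 and FGF19 mouse 3 nearest to each other.

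For each mouse, the log2 CPM of each gene was centred on its mean over the 6 libraries and averaged over the late-night and over the day-to-dusk genes. The late-night mean was -0.84, 0.21 and -0.20 in vehicle mice and 0.52, 0.39 and -0.08 in FGF19 mice, and overlapped. The day-to-dusk mean was 0.48, 0.28 and 0.42 in vehicle mice and -0.52, -0.45 and -0.21 in FGF19 mice, and did not. The late-night minus day-to-dusk difference was -0.67 ± 0.626 in vehicle mice and 0.67 ± 0.478 in FGF19 mice (SD, n = 3 each), 1.34 higher after FGF19 on the log2 scale. Of this, the day-to-dusk genes gave -0.79 and the late-night genes 0.55, where Vehicle mouse 1 contributed the lowest value. With 1 collection time, a shift of phase and a change in the level or amplitude of the same transcripts cannot be told apart.

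**Figure D4:**
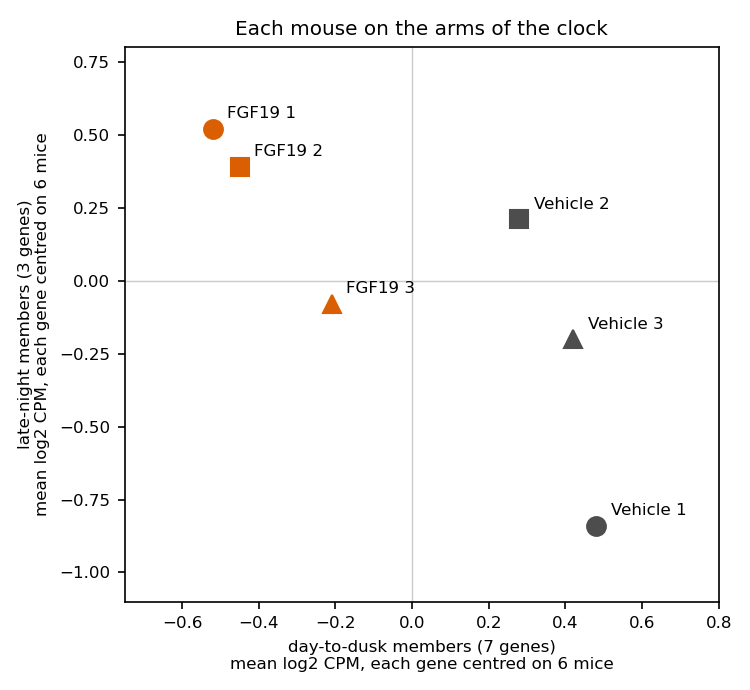
Mean centred log2 CPM of the late-night genes (Arntl, Npas2, Nfil3) against that of the day-to-dusk genes (Nr1d1, Nr1d2, Dbp, Tef, Hlf, Per3, Cry2) in each mouse, with vehicle in grey and FGF19 in orange. The groups are separated along the day-to-dusk axis, at 0.28 to 0.48 against -0.52 to -0.21, and overlap along the late-night axis.

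The spread of the 10 genes between mice of the same group does not use the contrast by which they were chosen. Their median within-group SD was 0.316 on the log2 scale, against 0.168 over all genes tested, and 8 of the 10 lay above that overall median. The 8 other core clock genes described below all lay above it too, at 0.256 to 0.585. Npas2 (0.679), Dbp (0.517) and Per3 (0.424) were spread most, at the 98.4th, 94.8th and 90.7th percentile of all genes tested, and Cry2 (0.152) and Hlf (0.128) least. Counting error adds to this value for the genes with few counts, Npas2 above all. By group, the SD was larger among vehicle mice for 5 of the 10 genes (Arntl, Npas2, Nfil3, Nr1d1 and Hlf) and larger among FGF19 mice for the other 5. The widest contrast was in Nr1d1, at 0.431 in vehicle mice and 0.034 in FGF19 mice, while Dbp was at 0.403 and 0.609.

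The deviations of each mouse from its group mean differed by gene. Relative to the vehicle mean, Vehicle mouse 1 was lower in Npas2 (-0.79), Nr1d1 (-0.50), Arntl (-0.47) and Nfil3 (-0.43), and higher in Per3 (0.41) and Dbp (0.31), on the log2 scale. Vehicle mouse 2 deviated the other way in each of these 6 genes, from -0.46 for Dbp to 0.61 for Npas2. Among FGF19 mice, mouse 3 was lower in Npas2 (-0.74), Nr1d2 (-0.30) and Nfil3 (-0.22), and higher in Dbp (0.70), Per3 (0.47) and Tef (0.28). The day-to-dusk genes did not deviate as a set. Nr1d1 went with Arntl and against Dbp and Per3 in Vehicle mice 1 and 2, Nr1d2 went against Dbp in all 3 FGF19 mice, and Cry2 was within 0.08 of its mean in every vehicle mouse. These deviations rest on 3 mice a group and were not tested.

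To set the list beside other parts of the oscillator, 8 core clock genes outside it (Clock, Per1, Per2, Cry1, Ciart, Rora, Bhlhe40 and Bhlhe41) were tested over all genes with edgeR's quasi-likelihood test and Benjamini-Hochberg adjustment. They are genes that remain outside a list picked from this contrast, and were themselves chosen with earlier results of these data known. Their counts and p-values are therefore a description. Of these 8, 0 rose and 0 fell by edgeR, where 4.56% and 2.84% of all genes did, and their median log2 fold change was -0.20. The counts were also 0 at an unadjusted p under 0.05, and by DESeq2, the likelihood ratio test and limma-voom. Without FGF19 mouse 3, 1 was higher and 2 were lower, as given below, where 8% and 7.3% of all genes were.

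Clock, Per1, Per2 and Cry1 had overlapping groups. Clock, the main partner of BMAL1, was at 44.2, 38.3 and 41.8 CPM in vehicle mice and at 46, 50.1 and 28.7 CPM in FGF19 mice, a log2 fold change of 0.00, or -0.14 to 0.22 with 1 mouse left out. Per1, at 50.8, 32.2 and 55.9 CPM against 46.5, 38.9 and 39.9 CPM, had a log2 fold change of -0.15, which ranged from -0.35 without Vehicle mouse 2 to 0.01 without Vehicle mouse 3. Per2, at 16.5, 9.17 and 9.53 CPM against 8.65, 10.1 and 10.9 CPM, had one of -0.25, with the highest level in Vehicle mouse 1, and it ranged from -0.40 without Vehicle mouse 2 to 0.08 without Vehicle mouse 1. Cry1, at 11.8, 14.1 and 9.33 CPM against 10.9, 9.7 and 8.19 CPM, had one of -0.29, ranging from -0.43 to -0.14. In all 4 genes the groups overlapped, whereas Per3 and Cry2 of the same families did not overlap, and the difference between family members was not tested. Since Per3 and Cry2 were picked from this contrast, nothing is read from that difference.

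Ciart, Rora and the DEC genes had wide or mouse-dependent values. Ciart, listed as Gm129 in the files and encoding a repressor of BMAL1 and its partner, was at 7.2, 7.79 and 8.79 CPM in vehicle mice and at 3.16, 4.09 and 9.15 CPM in FGF19 mice. Rora, the ROR alpha gene, was at 7.05, 6.31 and 7.25 CPM against 10, 10.9 and 3.98 CPM. In both genes FGF19 mouse 3 lay on the other side of the vehicle mice from FGF19 mice 1 and 2. Their log2 fold changes were -0.53 (adjusted p = 0.383 by edgeR) and 0.27 (adjusted p = 0.658 by edgeR). Without FGF19 mouse 3 they were -1.12 (adjusted p = 0.00576 by edgeR) and 0.61 (adjusted p = 0.0166 by edgeR), the lowest p values among 13 alternatives (other tests, scalings and filters, the replicate numbers as a block, and each mouse left out), which reached up to 0.73 for Ciart and 0.975 for Rora. Bhlhe40 and Bhlhe41, the DEC genes that compete at E-boxes, had log2 fold changes of 0.38 (adjusted p = 0.235 by edgeR) and -0.99 (adjusted p = 0.27 by edgeR). The Bhlhe40 value ranged from 0.16 without FGF19 mouse 1 to 0.56 without FGF19 mouse 2. Bhlhe41 was under 1 CPM in every library, and without FGF19 mouse 3 its log2 fold change was -1.78 (adjusted p = 0.0363 by edgeR, where the alternatives reached up to 0.575).

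Genes known to act on clock proteins or to follow the clock and the PAR bZIP factors in liver were then counted. Of 10 modifiers of clock proteins (kinases, ubiquitin ligases and others), 1 fell and 0 rose by edgeR and by DESeq2, where 2.84% and 4.56% of all genes did by edgeR, with a median log2 fold change of -0.05. The counts were the same at an unadjusted p under 0.05 (11.3% and 11.6% of all genes). The gene that fell was Usp2, a rhythmic deubiquitinase gene, at 24.1, 16.9 and 12.7 CPM in vehicle mice and 4.33, 5.61 and 7.61 CPM in FGF19 mice, with a log2 fold change of -1.61 (SE 0.26, adjusted p = 0.00668 by edgeR). Of 6 liver genes known to depend on the PAR bZIP factors, 2 fell and 0 rose by edgeR (2.84% and 4.56% of all genes), with a median of -0.59, and 4 were lower and 0 higher at an unadjusted p under 0.05 (11.3% and 11.6% of all genes). DESeq2 called 3 lower and 0 higher, where it called 4.13% and 5.11% of all genes. The further gene was Por, which encodes the electron donor of cytochromes P450 and is named here after its values were seen, at 781, 705 and 611 CPM in vehicle mice and 391, 474 and 570 CPM in FGF19 mice, with a log2 fold change of -0.55 (adjusted p = 0.052 by edgeR, 0.00499 by DESeq2, and 0.00499 to 0.172 over 13 alternatives). Cyp2a5, a cytochrome P450 gene, was at 622, 367 and 467 CPM against 147, 183 and 167 CPM, a log2 fold change of -1.55 (SE 0.177, adjusted p = 0.00112 by edgeR), but it has a near-identical copy in Cyp2a4, and reads that matched both were left out, so its values are uncertain. Nr1i3, the gene of the xenobiotic receptor CAR, was at 169, 192 and 177 CPM against 103, 93.8 and 148 CPM, a log2 fold change of -0.64 (SE 0.156, adjusted p = 0.0381 by edgeR). The Nr1i3 call was lost when any 1 library other than FGF19 mouse 3 was left out, at adjusted p values by edgeR from 0.0778 to 0.139 (0.000817 to 0.139 over all 13 alternatives), and 257 of its bases are shared with Tomm40l.

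Of 8 other genes with textbook rhythms in liver, 3 fell and 1 rose, where 2.84% and 4.56% of all genes did, with a median log2 fold change of -0.32 on a list assembled with results of these libraries known. Upp2, a uridine phosphorylase gene, was at 187, 228 and 143 CPM in vehicle mice and at 46.1, 41.8 and 50.3 CPM in FGF19 mice, a log2 fold change of -2.01 (SE 0.161, adjusted p = 0.000197 by edgeR). Wee1, a cell cycle kinase gene with E-boxes, was at 4.62, 5.35 and 4.37 CPM against 1.49, 1.79 and 2.44 CPM, a log2 fold change of -1.32 (SE 0.214, adjusted p = 0.00705 by edgeR). Nampt, which encodes an enzyme of NAD synthesis, was at 93.7, 81.2 and 78 CPM against 59.4, 65 and 54 CPM, a log2 fold change of -0.50 (SE 0.105, adjusted p = 0.0206 by edgeR). Insig2, a brake on sterol synthesis and a known REV-ERB target, was at 298, 391 and 324 CPM against 485, 531 and 560 CPM, a log2 fold change of 0.64 (SE 0.115, adjusted p = 0.0114 by edgeR). All 4 were without overlap between groups, and Upp2, Wee1 and Usp2 passed under all 13 alternatives. The call was lost for Nampt without Vehicle mouse 1, Vehicle mouse 3 or FGF19 mouse 1, and for Insig2 without Vehicle mouse 3. The lists before it were assembled in the same way, and a part of FGF19 apart from the clock in each gene was not tested.

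**Figure D5:**
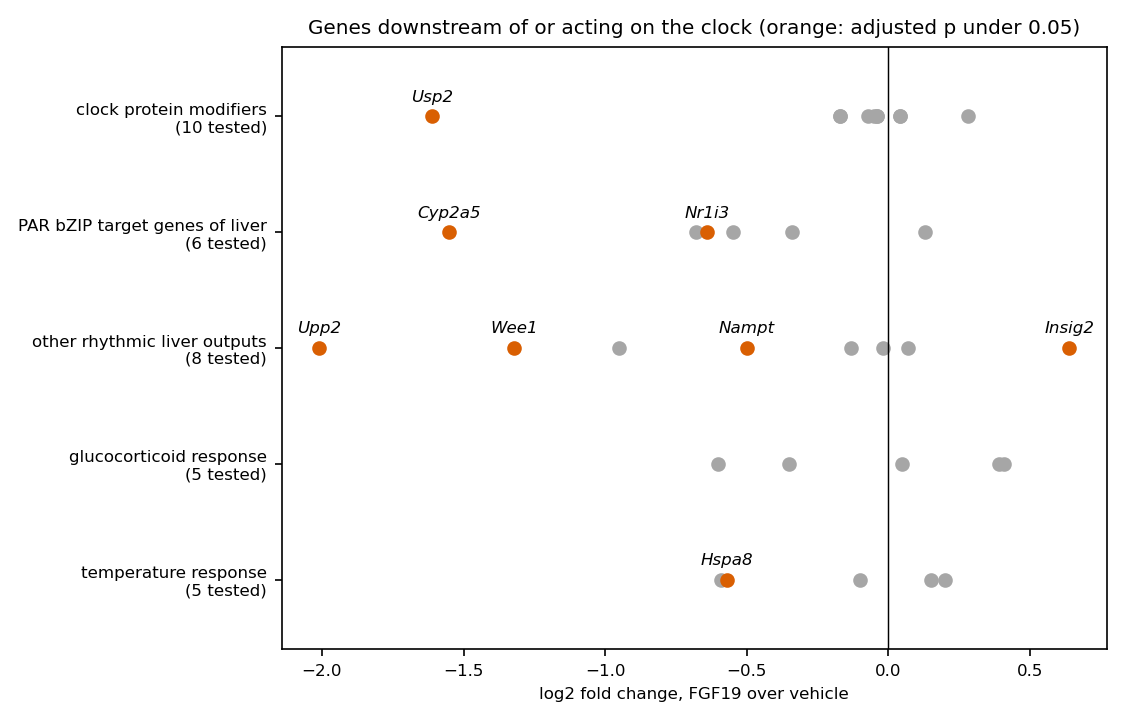
Log2 fold change of FGF19 over vehicle, drawn as points, for clock protein modifiers, PAR bZIP targets, other rhythmic liver genes, glucocorticoid-responsive and temperature-responsive genes. Genes at an adjusted p under 0.05 by edgeR are in orange. Upp2, Usp2, Cyp2a5 and Wee1 lie at -2.01 to -1.32, and the glucocorticoid-responsive genes lie between -0.60 and 0.41 with none past the threshold.

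Transcripts known to respond to signals that reset the liver clock were counted beside the clock genes, and the signals themselves were not measured. Of 5 glucocorticoid-responsive genes, 0 rose and 0 fell by edgeR and by DESeq2, where 4.56% and 2.84% of all genes did by edgeR. At an unadjusted p under 0.05, 1 was higher and 0 lower (11.6% and 11.3% of all genes), and the median log2 fold change was 0.05. The one farthest from 0 was Fkbp5, at -0.60 (adjusted p = 0.373 by edgeR), ranging from -0.91 to -0.21 with 1 mouse left out. This rank depended on the mice. Zbtb16, at -0.35 over all mice, was farther from 0 at 1.31 without Vehicle mouse 2 and at -0.85 without Vehicle mouse 1. Of 5 tested genes that follow body temperature, 1 fell and 0 rose by edgeR (2.84% and 4.56% of all genes), with a median log2 fold change of -0.10, and DESeq2 and an unadjusted p under 0.05 gave the same counts. It was Hspa8, a constitutive heat shock protein gene, at 888, 735 and 724 CPM in vehicle mice and 505, 513 and 568 CPM in FGF19 mice, a log2 fold change of -0.57 (SE 0.106, adjusted p = 0.0136 by edgeR), and the call was lost without FGF19 mouse 1 or FGF19 mouse 2. The temperature list joined genes known to rise in the cold (Cirbp and Rbm3) with heat shock genes (Hspa1b, Hsph1 and Hspa8). Its pooled median and counts therefore cannot show a shift toward cold or heat. Log2 fold changes were 0.20 for Cirbp, 0.15 for Rbm3, -0.59 for Hspa1b and -0.10 for Hsph1, with overlapping groups in each. The Hsph1 value ranged from -0.29 to 0.19 with 1 mouse left out. These signs were not tested as a set. The part of glucocorticoids or temperature in the clock genes was not tested.

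Of the marker lists of other cells, the neutrophil markers (S100a8, S100a9 and Mpo) summed to 0.334 to 1.44 CPM in vehicle mice and 2.51 to 4.04 CPM in FGF19 mice. This sum rested on S100a8 and S100a9, at 2 to 61 counts per library, with Mpo at 0 or 1 counts. Endothelial markers summed to 158 to 163 CPM in vehicle mice and 143 to 150 CPM in FGF19 mice. Among them only Clec4g was without overlap (log2 fold change -0.38), with Kdr at -0.17, Stab2 at -0.01 and Pecam1 at 0.14. The sums for Kupffer cells, stellate cells, cholangiocytes, lymphocytes, red cells and adipocytes overlapped between groups. Within these lists Vsig4 (-0.54) and Reln (-0.46) were lower without overlap, and Emr1 (0.36) and Cd3e (0.75) were higher without overlap. Pancreas markers stood at 5.67 to 7.05 CPM in vehicle mice and 5.51 to 5.63 CPM in FGF19 mice. Hba-a1 and Hbb-b1 were at 0 in every library, where reads shared with their near-identical copies were not counted. The part of other cells in the clock genes was not tested.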

How the data were processed

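The values were raw read counts per gene, as the authors deposited them for 6 liver libraries (3 vehicle, 3 FGF19). Per the labels and file headers, paired-end reads were trimmed with Trimmomatic 0.36, aligned to mm9 with STAR (2.5.3a per the submitters' processing notes; the study's methods name another version) and counted with featureCounts 1.5.2, without regard to strand, with mates counted separately and multi-mapped or multi-gene reads left out. A table of the authors' own comparison (fold changes and p-values) was not used. Here, edgeR 4.0.16 (R 4.3.3) was run with TMM scaling, filterByExpr, the quasi-likelihood test and Benjamini-Hochberg adjustment at 0.05 over 12559 genes, after a check on simulated data. CPM and RPKM were computed from the counts, RPKM with the exon lengths in the files (and, added after seeing the data, with the bases shared with another gene left out), and log2 CPM with a prior count of 2. The members and lists were chosen with earlier results of these data known. Named genes were the 10 members, 8 further core clock genes, of each other list the genes past the threshold (or that farthest from 0), and the 3 genes most correlated with Arntl and with Dbp among those at 5 CPM or more. Alternatives were DESeq2 1.42.0, edgeR's likelihood ratio test, limma-voom (limma 3.58.1), no TMM, other filters, a replicate block, the study's unadjusted threshold of 0.01 and each library left out. Replicates were separate mice per the study's methods. Intervals cover these fits and floors cover counting error alone. Promoter sequences came from RefSeq (GRCm38.p6), and protein sequences were not used here. A gene of the planned core clock list is not reported here, so the counts of core clock genes cover the 8 named.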

Additional observations from a re-analysis of the deposited data

How the results depend on the processing

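Across all genes tested, 573 were higher and 357 lower (edgeR, quasi-likelihood, adjusted p of 0.05 as threshold). With the replicate block these counts were 370 and 164, the likelihood ratio test gave 579 lower, and the unadjusted threshold of 0.01 gave 626 lower. Leaving out 1 library gave 236 to 1015 higher and 91 to 926 lower, the highest counts without FGF19 mouse 3. Of the 10 clock and PAR bZIP genes, 1 (Npas2) was higher by DESeq2 and by the likelihood ratio test. These tests called 5.11% and 6.21% of all genes higher. With a library left out 0 to 1 of the 10 were higher, the 1 without FGF19 mouse 3, where 8% of all genes were higher. The number lower was 1 to 4 with a library left out, 1 without Vehicle mouse 3 and without FGF19 mouse 2, and 2 without FGF19 mouse 1. In these fits 0.719% (without FGF19 mouse 2) to 7.3% (without FGF19 mouse 3) of all genes were lower. Of the 8 other core clock genes, 0 to 1 were higher and 0 to 2 lower with a library left out, the most without FGF19 mouse 3. For these counts the cause was not tested. As a description, since these genes were chosen from this contrast, Dbp passed under 11 of the 13 alternatives, Tef under 13, Per3 under 9, Cry2 under 7, Nr1d1 under 4 (log2 fold changes -0.81 to -0.47) and Npas2 under 3 (0.85 to 1.52). The mean log2 fold change of late-night minus day-to-dusk genes was 1.32, and 1.03 to 1.65 with a library left out. The labels give the same replicate numbers in both groups, but the deviations of same-numbered mice correlated at -0.0313, -0.181 and -0.182, so the numbers were not taken as pairs. Under the replicate block 3 of the 10 genes were lower, without Cry2, where 1.31% of all genes were lower. Reads counted without strand leave sense and antisense transcripts unseparated.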

Other observations

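The genes whose log2 CPM over the 6 libraries was most like that of Arntl and of Dbp were found among 9143 genes with a mean of at least 5 CPM, as a description over 6 points that share the 2 treatments. For Arntl they were Pxk (Pearson r = 0.995), Pid1 (r = 0.99) and 2310022B05Rik (r = 0.99). Pxk was at 25.6, 34.3 and 31.8 CPM in vehicle mice and 38, 34.6 and 33.1 CPM in FGF19 mice, lowest in Vehicle mouse 1 and highest in FGF19 mouse 1, as Arntl was. For Dbp they were 5033403H07Rik, Hemk1 and Baat, each at r = 0.997. Baat, which encodes the enzyme that conjugates bile acids to amino acids, was at 357, 337 and 351 CPM in vehicle mice and 298, 303 and 320 CPM in FGF19 mice, a log2 fold change of -0.18 where that of Dbp was -1.59.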
